A study of Mus musculus with 6 samples.

Results

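The genes described here are 40 genes of mitosis and proliferation, chosen by symbol: regulators of entry into mitosis, the spindle checkpoint, the kinetochore, the spindle and cytokinesis, and the proliferation marker gene Mki67. All 40 symbols were found among the 23284 gene symbols of the count tables, and all 40 had enough counts to be among the 13039 genes tested. RNA came from MIN6 cells, a line derived from a mouse insulinoma and much used to study insulin-secreting cells. The groups were 3 Paupar KD libraries, labelled as treated with a Paupar ASO (an antisense oligonucleotide by the usual meaning of the abbreviation), and 3 control KD libraries, labelled as treated with a control ASO. Both groups thus share the cell line and exposure to an oligonucleotide. Paupar is a long noncoding RNA encoded beside Pax6, the gene of a transcription factor of endocrine cells. The labels name no clone, culture or time of treatment.

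Proliferating cells transcribe most mitosis genes late in the cell cycle, in G2, and destroy many of the encoded proteins at the end of mitosis. Their transcription is shut off in resting cells by the DREAM complex and switched on in G2 by MuvB with B-MYB and FOXM1, largely through a promoter element called the CHR and through CCAAT boxes bound by NF-Y. Adult beta cells divide rarely, whereas an insulinoma line such as MIN6 divides continuously, so that these genes are normally well expressed in it.

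Total counts were 16973622 to 23434166 in the Paupar KD libraries and 22463557 to 28693863 in the control KD libraries. The smallest count of any of the 40 genes in a library was 671, for which counting error alone is 3.86%. The Paupar KD libraries differed from each other more than the controls did, with a biological coefficient of variation over all genes of 18.7% in Paupar KD and 4.96% in control KD, and replicates 1 and 3 of Paupar KD were the most unlike pair. No symbol matched Paupar, so these counts do not check the knockdown. All 9 beta cell markers were expressed, at a summed 38040 to 56320 CPM (counts scaled to a common library size) in Paupar KD and 32230 to 36240 CPM in control KD. The summed level of 9 fibroblast or mesenchymal markers was 0.542 to 1.41 CPM in Paupar KD and 0.720 to 0.890 CPM in control KD, and Col3a1, Lum and Dcn had no counts in any library. That of 5 endothelial markers was 0.707 to 1.28 CPM in Paupar KD and 0.720 to 1.08 CPM in control KD, with Cdh5 and Emcn at 0, and that of 5 immune markers 0.825 to 1.49 CPM in Paupar KD and 2.58 to 2.72 CPM in control KD, with Ptprc at 0. Cd68, the 1 immune marker with enough counts to be tested, was below the controls in all 3 Paupar KD libraries, at a log2 fold change of -1.13, and was called by DESeq2 but not by edgeR, and its part in the results was not tested. The 7 exocrine and duct markers summed to 215 to 328 CPM in Paupar KD and 229 to 244 CPM in control KD, with Amy2a5, Cpa1, Prss2 and Sox9 at 0.

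No mitosis gene passed the test between Paupar KD and control KD, and the direction was mixed. With edgeR's quasi-likelihood test and Benjamini-Hochberg adjustment over all genes at 0.05, 0 of 40 were called higher and 0 of 40 lower; over all genes 0.0383% were called higher and 0.00767% lower. Before adjustment, edgeR's p was under 0.05 for 0 genes higher and 1 lower of the 40, which was Mki67, beside 9.63% of all genes higher and 8.11% lower. After adjustment DESeq2 called 0 of the 40 higher and 1 lower, again Mki67, beside 2.11% of all genes higher and 1.79% lower. Of the 40 log2 fold changes 24 were positive and 16 negative, with a median of 0.045, beside a median of 0.006 and 51.0% positive over all genes. In a bulk sample, fewer dividing cells and less of an mRNA in each dividing cell cannot be told apart.

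Paupar KD and control KD libraries did not overlap in 3 of the 40 genes: Bub3, higher in Paupar KD, and Mki67 and Smc2, lower in Paupar KD. That is 2.5% of these genes higher and 5.0% lower, beside 13.7% and 13.3% of all genes tested. Another arrangement was frequent in place of separation. In 24 of the 40 genes, Paupar KD replicate 1 lay above all 3 controls while Paupar KD replicate 3 lay below all 3 controls, an arrangement held by 11.7% of all genes. Replicate 1 was above all controls in 28 genes and below them in 7, beside 41.9% and 42.6% of all genes. Replicate 2 lay above all controls in 19 genes and below them in 9, beside 36.6% and 37.1% of all genes. Replicate 3 was above them in 1 gene and below them in 34, beside 37.3% and 34.8% of all genes. The other genes lay within the control range. Set against the mean of the controls, the 40 genes had a median log2 difference of 0.23 in Paupar KD replicate 1, 0.072 in replicate 2 and -0.18 in replicate 3, beside 0.001, 0.003 and 0.012 for all genes tested. These arrangements were noticed after the values were seen, and are given as a description. The labels do not say that replicates were separate cultures, so the tests measure the spread between these libraries.

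**Figure D1:**
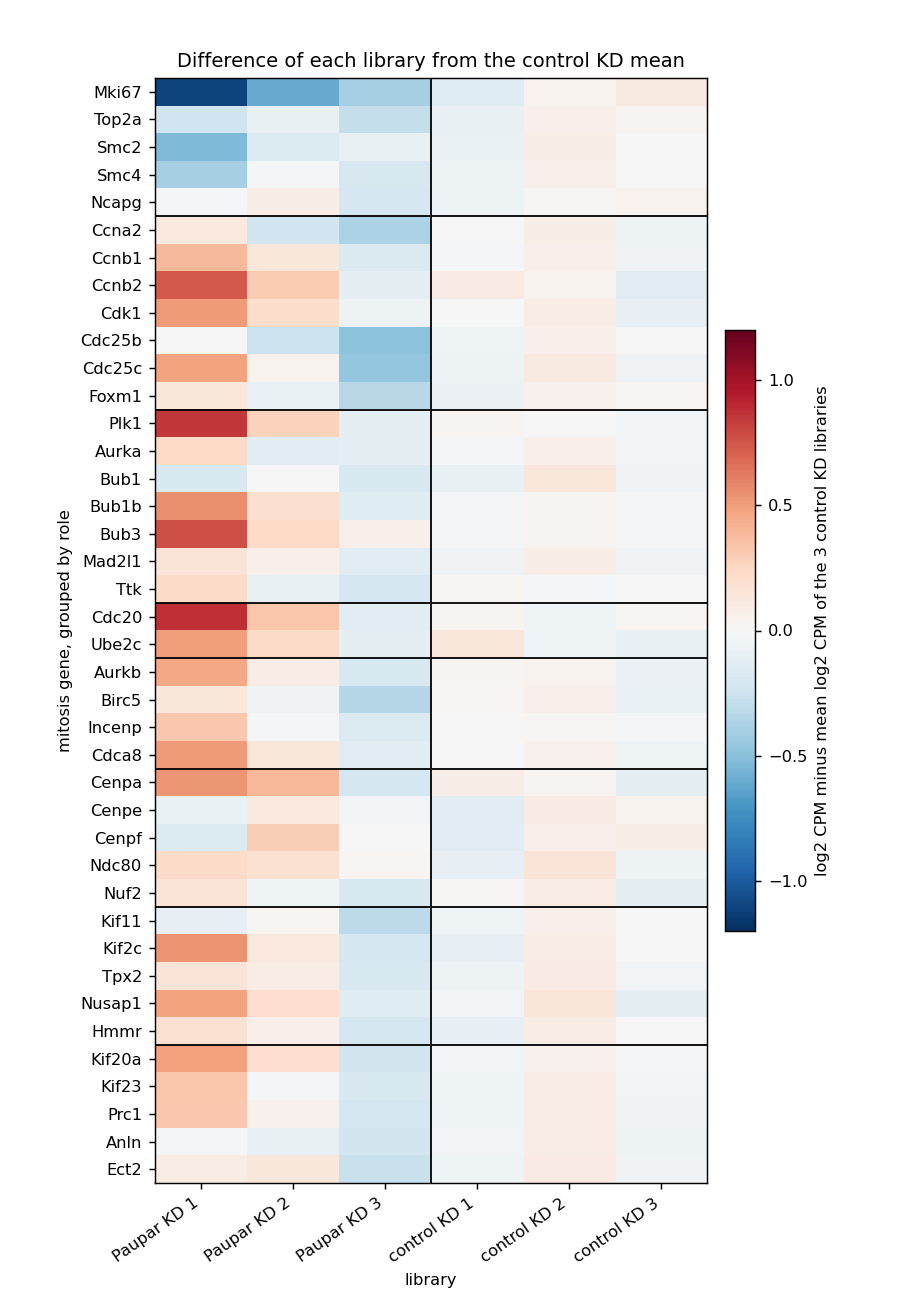
Log2 difference of each of the 6 libraries (columns) from the mean of the 3 control KD libraries for the 40 genes (rows, grouped by role), with blue for lower and red for higher. Paupar KD replicate 1 is red for most rows and replicate 3 pale blue (medians of 0.23 and -0.18), while the first rows, led by Mki67, are blue in replicate 1.

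The promoters of a few of these genes, chosen with their values known, are shown first because they hold both CHR letters and CCAAT. Whether these letters act as elements there was not tested. The levels of these genes in Paupar KD replicate 1 differed from the controls in opposite directions. In Paupar KD replicate 3 the log2 differences from the control mean were -0.127 for Cdc20, -0.113 for Ccnb2, 0.059 for Bub3, -0.403 for Mki67 and -0.284 for Top2a. With all libraries edgeR called none of them. Printed are Cdc20, Bub3 and Ccnb2, which are among the genes with the most positive fold changes, and Mki67 and Top2a, whose levels were lower in Paupar KD replicate 1 than in any control. Each run covers 200 bases before and 30 after the RefSeq start of the gene, 5′ to 3′ on the strand of the gene. Capitals mark the CHR letters TTTGAA and the letters CCAAT, or their reverse complements TTCAAA and ATTGG.
Cdc20: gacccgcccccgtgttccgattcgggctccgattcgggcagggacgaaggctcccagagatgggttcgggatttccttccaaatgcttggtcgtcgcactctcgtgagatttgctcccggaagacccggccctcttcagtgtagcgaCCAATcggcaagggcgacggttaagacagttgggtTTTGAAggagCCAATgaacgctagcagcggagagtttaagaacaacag
Ccnb2: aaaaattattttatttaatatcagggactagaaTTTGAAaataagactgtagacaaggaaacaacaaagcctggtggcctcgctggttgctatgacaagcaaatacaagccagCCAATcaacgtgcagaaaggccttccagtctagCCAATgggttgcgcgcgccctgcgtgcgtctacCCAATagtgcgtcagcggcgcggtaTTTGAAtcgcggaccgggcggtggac
Bub3: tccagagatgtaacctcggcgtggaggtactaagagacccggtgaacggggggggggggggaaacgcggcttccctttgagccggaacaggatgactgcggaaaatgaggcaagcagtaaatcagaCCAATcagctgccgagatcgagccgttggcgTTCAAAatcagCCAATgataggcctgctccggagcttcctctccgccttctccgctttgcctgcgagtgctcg
Mki67: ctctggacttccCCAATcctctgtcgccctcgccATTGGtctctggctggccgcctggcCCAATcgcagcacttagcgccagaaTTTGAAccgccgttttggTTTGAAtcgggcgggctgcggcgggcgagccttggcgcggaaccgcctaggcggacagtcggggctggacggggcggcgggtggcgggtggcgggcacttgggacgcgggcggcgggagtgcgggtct
Top2a: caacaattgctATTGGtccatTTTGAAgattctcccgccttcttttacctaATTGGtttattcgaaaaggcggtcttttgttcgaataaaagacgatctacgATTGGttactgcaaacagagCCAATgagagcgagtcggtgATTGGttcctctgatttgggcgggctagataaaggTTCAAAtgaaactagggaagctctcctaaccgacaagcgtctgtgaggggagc

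The sequences are from RefSeq with build GRCm38.p6. The same letters were found once each in the mm9 genome, the build named in the submitters' processing notes, and the positions given here are those of mm9. The Cdc20 window lies at chr4:118109919-118110148 on the minus strand, that of Ccnb2 at chr9:70269332-70269561 on the minus strand, that of Bub3 at chr7:138703684-138703913 on the plus strand, that of Mki67 at chr7:142908033-142908262 on the minus strand and that of Top2a at chr11:98885474-98885703 on the minus strand. Counting back from the start, the first CHR letter stands 18 bases before it in Cdc20 and 43 before it in Bub3, where it is on the opposite strand. In Ccnb2 there is one 167 bases before the start and one at position 5 after it. Mki67 holds a pair, 116 and 98 bases before the start, and Top2a one at 179 and one on the opposite strand at 23 bases before it.

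RefSeq promoter windows of 250 bases before to 50 after the start were at hand for 32 of the 40 genes. TTTGAA was present on either strand in 24 of the 32, or 75.0%, beside 13.7% of the 9302 tested genes with a window and 20.2% of all 27025 genes. CCAAT on either strand was present in 25 of the 32, or 78.1%, beside 43.4% of the tested genes. Both were present in 21 of the 32, or 65.6%, beside 5.58% of the tested genes, where the motifs can share at most 1 letter. The median log2 fold change was 0.064 for the 24 genes with TTTGAA and -0.010 for the 8 without, which were Ccnb1, Cdc25b, Bub1, Mad2l1, Birc5, Cenpe, Nuf2 and Nusap1. Genes with TTTGAA lay at both ends of the fold changes, with Cdc20 at one end and Mki67 at the other. With 24 of the 32 genes carrying it, that was likely in advance and says nothing about the element.

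Mki67 and 4 genes of chromosome structure were the class in which every log2 fold change was negative with all libraries and TMM scaling; that of Ncapg turned positive with a length offset, at 0.043, and without Paupar KD replicate 3, at 0.035. Levels are listed here in the order of replicates 1 to 3. Mki67 encodes the Ki-67 protein, which coats mitotic chromosomes and is the standard histological marker of dividing cells. Mki67 (chr7:142881471-142908062, minus strand) was at 348, 493 and 567 CPM in Paupar KD replicates 1 to 3, against 678, 770.0 and 808 CPM in control KD replicates 1 to 3. The 3 Paupar KD values lay below the 3 controls, with replicate 1 at 0.463 of the control mean, replicate 2 at 0.655 and replicate 3 at 0.754. The means were 469 ± 112 CPM in Paupar KD and 752 ± 67 CPM in control KD (SD, n = 3 per group), a log2 fold change of -0.68 ± 0.17 SE that missed the threshold (edgeR adjusted p = 0.149). It passed with DESeq2 (adjusted p = 0.0122), which called 1.79% of all genes lower and 2.11% higher. With edgeR it passed without Paupar KD replicate 1 or without replicate 3, where 0.972% and 5.67% of all genes were called lower. It did not pass without Paupar KD replicate 2 (edgeR adjusted p = 0.247). Nor did it pass without control KD replicate 1, 2 or 3 (edgeR adjusted p = 0.411, 0.56 and 0.521).

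Top2a encodes topoisomerase II alpha, which untangles sister chromatids. Top2a (chr11:98854257-98885503, minus strand) was at 694, 770.3 and 673 CPM in Paupar KD replicates 1 to 3, against 769, 852 and 839 CPM in control KD replicates 1 to 3. Paupar KD replicate 2 overlapped the controls by a small margin and replicates 1 and 3 lay below them (log2 fold change -0.20 ± 0.092 SE, edgeR adjusted p = 0.294). Smc2 and Smc4 encode the paired ATPase subunits of condensin, the complex that compacts mitotic chromosomes. Smc2 (chr4:52452115-52501237, plus strand) was at 186, 240.2 and 253 CPM in Paupar KD replicates 1 to 3, against 254, 284 and 269.7 CPM in control KD replicates 1 to 3, so that the groups did not overlap, though replicate 3 and the lowest control nearly met (edgeR adjusted p = 0.326). Smc4 (chr3:68808660-68838545, plus strand) was at 176, 229.8 and 204 CPM in Paupar KD replicates 1 to 3, against 223, 243 and 233 CPM in control KD replicates 1 to 3, with replicate 2 inside the control range (edgeR adjusted p = 0.375). Ncapg encodes another condensin subunit, and its groups overlapped, with Paupar KD replicate 2 above every control and replicate 3 below every control. Its levels were 101, 108 and 88.7 CPM in the Paupar KD libraries, against 98, 103 and 105 CPM in the controls. The counts of Smc2 and Foxm1 carry a small uncertainty, since stretches of 308 bases of Smc2 and 466 bases of Foxm1 have a near-identical copy elsewhere in the genome.

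Of 5 further condensin subunit genes, 2 leaned higher and 3 lower, at a median log2 fold change of -0.012, and edgeR called 0, also at an unadjusted p under 0.05 (9.63% and 8.11% of all genes). Ncaph2, a subunit of condensin II, was at 204, 192 and 184 CPM in the Paupar KD libraries, against 169, 181 and 178 CPM in the controls, and did not pass the test (edgeR adjusted p = 0.411). Ncapg2, also of condensin II, was at 144, 209.5 and 214 CPM in the Paupar KD libraries, against 206, 220.2 and 232 CPM in the controls. It was low in replicate 1 and overlapped the controls in the others, while Ncaph2 was above the controls in all 3 Paupar KD libraries. Cohesin and shugoshin genes, which hold sister chromatids together or protect that hold, leaned lower in 12 of 15 tested and higher in 3, at a median log2 fold change of -0.11, and edgeR called 0, with 0 higher and 1 lower at an unadjusted p under 0.05 (9.63% and 8.11% of all genes). The cohesin median was -0.052 without Paupar KD replicate 1 and -0.073 with the length offset. The smallest p belonged to Esco2, a cohesin acetyltransferase gene, at 36, 44.9 and 40.7 CPM in the Paupar KD libraries, against 50.8, 57.4 and 49.3 CPM in the controls (edgeR adjusted p = 0.182). Wapal, the gene of the cohesin release factor, followed at 118, 150.2 and 135 CPM in the Paupar KD libraries, against 151, 157 and 159.5 CPM in the controls. Both were below the controls in every Paupar KD library. Over the 15 genes the groups did not overlap in 0 with Paupar KD higher and 5 lower, beside 13.7% and 13.3% of all genes.

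**Figure D2:**
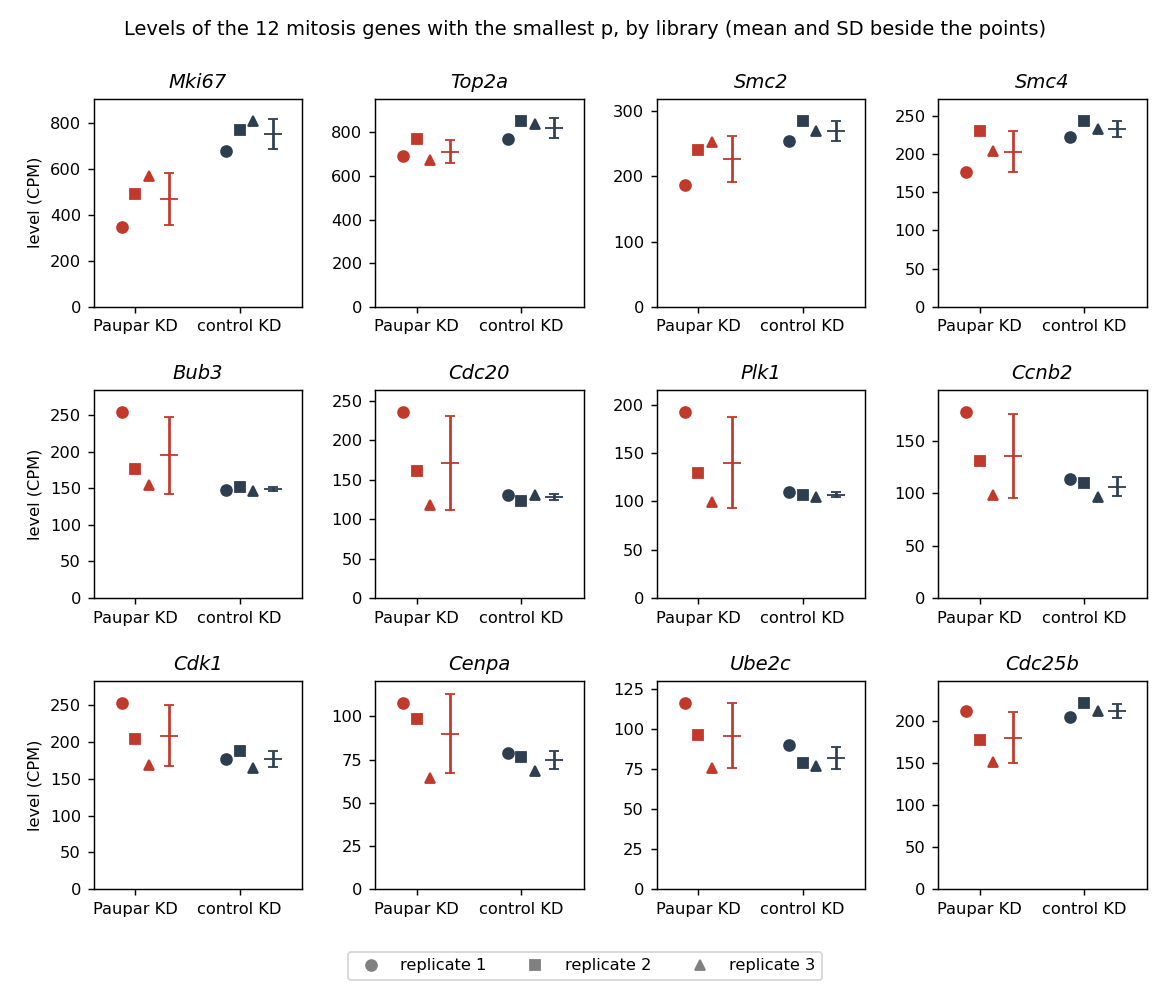
Level in CPM, from 0, of the 12 mitosis genes with the smallest p, with Paupar KD in red on the left and control KD in dark blue on the right of each panel; circles, squares and triangles are replicates 1, 2 and 3, and the bars are mean and SD (n = 3). Mki67 and Smc2 are below the controls in all 3 Paupar KD libraries, while Bub3, Cdc20, Plk1 and Ccnb2 are high in replicate 1 and near the controls in replicate 3.

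Entry into mitosis is driven by CDK1 with cyclins A2, B1 and B2, which the CDC25 phosphatases switch on. Cdk1 (chr10:68799383-68815686, minus strand) was at 253, 204 and 169.5 CPM in Paupar KD replicates 1 to 3, against 178, 188 and 166 CPM in control KD replicates 1 to 3 (log2 fold change 0.24 ± 0.14 SE, edgeR adjusted p = 0.404). Paupar KD replicates 1 and 2 were above every control and replicate 3 was among them. Ccnb2, the cyclin B2 gene (chr9:70255496-70269361, minus strand), was at 177, 131 and 98 CPM in Paupar KD replicates 1 to 3, against 113, 109 and 96.3 CPM in control KD replicates 1 to 3 (log2 fold change 0.35 ± 0.19 SE, edgeR adjusted p = 0.372). Replicate 1 was at 1.67 times the control mean and replicate 3 at 0.922 times. Ccnb1, the cyclin B1 gene (chr13:101548605-101556525, minus strand), was at 81.5, 68.2 and 55.1 CPM in Paupar KD replicates 1 to 3, against 61.3, 64.7 and 60.4 CPM in control KD replicates 1 to 3, with replicate 1 above and replicate 3 below the controls. Its level is uncertain, because 3 places elsewhere in the mm9 genome carry 60.39% to 74.65% of its transcript at 97.58% to 99.15% identity and reads may be shared with them.

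Ccna2 and Cdc25b, in contrast, leaned lower. Ccna2, the gene of cyclin A2 (chr3:36463788-36471072, minus strand), which acts from S phase to early mitosis, was at 340.3, 268 and 242 CPM in the Paupar KD libraries, against 313, 329.5 and 301 CPM in the controls (log2 fold change -0.15, edgeR adjusted p = 0.561). Cdc25b, which encodes the phosphatase that first activates CDK1 (chr2:131012685-131024233, plus strand), was at 212, 177 and 151 CPM in the Paupar KD libraries, against 205, 221 and 212 CPM in the controls (log2 fold change -0.24 ± 0.12 SE, edgeR adjusted p = 0.343). For both genes replicates 2 and 3 lay below all controls and replicate 1 did not. Cdc25c, a second activating phosphatase gene, had the widest relative range of the class in Paupar KD, with 55.5, 40.7 and 28.8 CPM in Paupar KD replicates 1 to 3 and 38 to 42.7 CPM in control KD. Foxm1, the gene of the transcription factor that switches on G2 genes, was at 186, 160.1 and 135 CPM in the Paupar KD libraries, against 161, 175 and 173 CPM in the controls. Its replicate 1 was above and its replicate 3 below the controls, as for Ccna2, Ccnb1 and Cdc25c. The 7 genes of this class had a median log2 fold change of 0.066, with 4 positive and 3 negative values and 0 calls.

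Polo-like kinase 1 and Aurora A drive centrosome maturation and spindle assembly. Plk1 (chr7:129302951-129313389, plus strand) was at 192, 129 and 99.3 CPM in Paupar KD replicates 1 to 3, against 109.8, 107 and 104 CPM in control KD replicates 1 to 3 (log2 fold change 0.39 ± 0.21 SE, edgeR adjusted p = 0.356). Replicate 1 stood at 1.8 times the control mean, replicate 2 at 1.21 times and replicate 3 below every control at 0.928 times. Aurka was at 158, 122 and 124 CPM in the Paupar KD libraries, against 132, 139.5 and 131 CPM in the controls, with replicate 1 above the controls and the others below them, and a log2 fold change near 0 (0.010 ± 0.12 SE).

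The spindle checkpoint holds back anaphase until every kinetochore is attached. BUB3 binds phosphorylated kinetochores and brings BUB1 and BUBR1, encoded by Bub1b, to them; MAD2, encoded by Mad2l1, inhibits CDC20; and the kinase encoded by Ttk starts the cascade. Bub3 (chr7:138703905-138715412, plus strand) was at 254, 176 and 155 CPM in Paupar KD replicates 1 to 3, against 147, 152 and 147 CPM in control KD replicates 1 to 3 (log2 fold change 0.39 ± 0.17 SE, edgeR adjusted p = 0.282). It was the 1 mitosis gene whose Paupar KD values were all above the controls, by little in replicate 3. Bub1b was at 158, 123 and 97.2 CPM in the Paupar KD libraries, against 106, 110.3 and 106 CPM in the controls. Bub1 (chr2:127626858-127657601, minus strand) was at 106, 120.5 and 106 CPM in the Paupar KD libraries, against 113, 132 and 117 CPM in the controls. Replicate 1 of Bub1b was above the controls, while that of Bub1 was below them. Mad2l1 ranged from 102 to 124 CPM in Paupar KD and from 109 to 118 CPM in control KD, and Ttk from 38.8 to 52.2 CPM in Paupar KD and from 43.9 to 45.4 CPM in control KD. Over the 7 kinase and checkpoint genes the median log2 fold change was 0.033, with 5 positive, 2 negative and 0 calls.

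Anaphase begins when CDC20 activates the anaphase-promoting complex, a ubiquitin ligase that works with the conjugating enzyme UBE2C. Cdc20 (chr4:118105506-118109957, minus strand) had the most positive fold change of the 40 genes, 1.33-fold, and was at 235, 161 and 117 CPM in Paupar KD replicates 1 to 3, against 131, 123 and 129.9 CPM in control KD replicates 1 to 3 (log2 fold change 0.42 ± 0.22 SE, edgeR adjusted p = 0.345). Replicate 1 was at 1.84 times the control mean and replicate 3 at 0.915 times, which is below every control. Ube2c (chr2:164595398-164604322, plus strand) showed the same arrangement at 116, 96.3 and 75.8 CPM in Paupar KD replicates 1 to 3, against 90.2, 79.2 and 77.1 CPM in control KD replicates 1 to 3 (log2 fold change 0.23 ± 0.15 SE, edgeR adjusted p = 0.454). Exons of Ube2c and of Tnnc2 on the other strand share 592 bases, and those of Cdc20 and Elovl1 share 53, and exons of Ncapg, Ccna2, Cdc25b, Cdca8 and Nusap1 overlap another gene by 92 to 942 bases, so reads there cannot be assigned with certainty while the strand setting is unknown. Foxm1 shares 144 exonic bases with 4933413G19Rik on the same strand.

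Among 18 tested genes of the anaphase-promoting complex, separase and their inhibitors, 14 leaned higher and 4 lower, at a median log2 fold change of 0.080, and edgeR called 0, with 1 higher and 0 lower at an unadjusted p under 0.05 (9.63% and 8.11% of all genes). Their median was 0.14 without Paupar KD replicate 3 and 0.13 with the length offset. Anapc4, a scaffold subunit of the complex, was at 177, 179.6 and 171 CPM in the Paupar KD libraries, against 115, 123 and 127 CPM in the controls. Its groups did not overlap and it was 1.44-fold higher in Paupar KD, short of the threshold (log2 fold change 0.53 ± 0.082 SE, edgeR adjusted p = 0.0691), though DESeq2 called it. Unlike Cdc20 and Ube2c, its 3 Paupar KD libraries were close to each other. Ube2s, the gene of the second conjugating enzyme of the complex, was at 29.5, 18.9 and 17.9 CPM in the Paupar KD libraries, against 15.7, 18.6 and 15 CPM in the controls, with replicate 1 the highest of the 6 libraries.

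In the chromosomal passenger complex, INCENP, survivin and borealin position Aurora B at centromeres and later at the midzone. In all 4 of its genes Paupar KD replicate 1 was above and replicate 3 below the 3 controls. That arrangement was not particular to them, being held by 24 of the 40 mitosis genes and 11.7% of all genes. Aurkb was at 138, 107 and 88.3 CPM in the Paupar KD libraries, against 103, 103 and 95.6 CPM in the controls. Cdca8, the borealin gene, was at 137, 106 and 87.4 CPM in the Paupar KD libraries, against 96.4, 99.5 and 92.8 CPM in the controls. Incenp was at 206, 162 and 147 CPM in the Paupar KD libraries, against 165, 167 and 164 CPM in the controls. Birc5, the survivin gene (chr11:117710565-117717069, plus strand), was at 129, 115 and 93.3 CPM in the Paupar KD libraries, against 119.7, 124 and 112 CPM in the controls, so that its replicate 3 was farther from the control mean than its replicate 1. The median log2 fold change of the 4 genes was 0.10, with 3 positive, 1 negative and 0 calls.

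Centromere and kinetochore genes were more varied. Cenpa, which encodes the histone H3 variant that marks centromeres (chr5:30969150-30977200, plus strand), was at 107, 98.2 and 64.4 CPM in Paupar KD replicates 1 to 3, against 78.9, 76.5 and 68.6 CPM in control KD replicates 1 to 3 (log2 fold change 0.27 ± 0.18 SE, edgeR adjusted p = 0.444). Replicates 1 and 2 were above the controls and replicate 3 below them. Ndc80 and Nuf2 encode partners in the rod that grips microtubules. Ndc80 was at 134, 129 and 115 CPM in the Paupar KD libraries, against 106, 127 and 109.5 CPM in the controls. Nuf2 was at 106, 91.6 and 83.4 CPM in the Paupar KD libraries, against 95.7, 101 and 87.7 CPM in the controls. Replicate 1 of both was above the controls, and replicate 3 was below them for Nuf2 and among them for Ndc80. Cenpe, a kinesin gene of chromosome alignment, and Cenpf, the gene of a large kinetochore protein, did not share the high level in replicate 1. Cenpe was at 113, 129.6 and 117 CPM in the Paupar KD libraries, against 108, 128 and 123 CPM in the controls. Cenpf was at 158, 217 and 178 CPM in the Paupar KD libraries, against 161, 185 and 186 CPM in the controls, with replicate 1 the lowest of the 6 libraries for Cenpf and replicate 2 the highest for both. Of 35 further kinetochore and centromere genes edgeR called 0, with 2 higher and 4 lower at an unadjusted p under 0.05 (9.63% and 8.11% of all genes); 19 leaned higher and 16 lower, at a median log2 fold change of 0.005. Fam33a, an older symbol of Ska2, was at 52.3, 51.3 and 55.9 CPM in the Paupar KD libraries, against 67.8, 67.6 and 61.2 CPM in the controls (edgeR adjusted p = 0.173). Cenpn was at 22.5, 23.6 and 20.7 CPM in the Paupar KD libraries, against 27.3, 29.4 and 26.5 CPM in the controls (edgeR adjusted p = 0.196). Both, named for the smallest p of the list, were below the controls in every Paupar KD library. Over the 35 genes the groups did not overlap in 4 with Paupar KD higher and 4 lower, beside 13.7% and 13.3% of all genes.

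Spindle motors and microtubule binders differed little in their means. Kif11 encodes the kinesin that pushes spindle poles apart, and Kif11 (chr19:37450893-37496349, plus strand) was at 365, 398 and 315 CPM in Paupar KD replicates 1 to 3, against 378, 408 and 390.2 CPM in control KD replicates 1 to 3, with replicates 1 and 3 below the controls (log2 fold change -0.12 ± 0.10 SE, edgeR adjusted p = 0.546). Kif2c, a microtubule-depolymerizing kinesin gene, was at 81.9, 60.9 and 48.7 CPM in the Paupar KD libraries, against 52.7, 59.9 and 56.6 CPM in the controls. Tpx2, the gene of the activator of Aurora A on the spindle, was at 424, 405 and 336 CPM in the Paupar KD libraries, against 364, 408 and 371 CPM in the controls. Nusap1 and Hmmr, genes of spindle-associated proteins, were high in replicate 1, at 204 CPM for Nusap1 and 277 CPM for Hmmr, and low in replicate 3, at 131 CPM and 211 CPM. Their control ranges were 134 to 161 CPM for Nusap1 and 228 to 259.9 CPM for Hmmr, and both replicates lay outside them on opposite sides. In 4 of these 5 genes, all but Kif11, replicate 1 was above and replicate 3 below the controls, beside 11.7% of all genes.

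Cytokinesis genes followed the same lines. The protein encoded by Prc1 bundles the microtubules of the central spindle, and Kif20a encodes the kinesin that brings the chromosomal passenger complex there and Kif23 the kinesin of the centralspindlin complex. Kif20a was at 177, 145 and 108 CPM in the Paupar KD libraries, against 123, 130.3 and 125 CPM in the controls. Kif23 was at 89.7, 70.8 and 63 CPM in the Paupar KD libraries, against 68.9, 75.8 and 69.5 CPM in the controls. Prc1 was at 268, 223 and 185 CPM in the Paupar KD libraries, against 207, 229 and 209 CPM in the controls. All 3 had replicate 1 above and replicate 3 below the controls, beside 11.7% of all genes. Ect2, the gene of the exchange factor that activates RhoA at the cell equator, was at 189, 193 and 148 CPM in the Paupar KD libraries, against 170.4, 189 and 172 CPM in the controls. Anln, the gene of the ring scaffold anillin, was at 177, 168 and 154 CPM in the Paupar KD libraries, against 176, 191 and 172 CPM in the controls. For Ect2 and Anln replicate 3 was below the controls and replicate 1 within their range. Kif20a shares 1259 exonic bases with Cdc23 on the other strand, so part of its count may belong to that gene. Of 32 further mitotic kinesin and spindle genes edgeR called 0, with 1 higher and 4 lower at an unadjusted p under 0.05 (9.63% and 8.11% of all genes), and 17 leaned higher and 15 lower, at a median log2 fold change of 0.001. Kif15, which backs up Kif11 at spindle poles, was at 45.3, 48.9 and 44.4 CPM in the Paupar KD libraries, against 53.4, 59.3 and 57.6 CPM in the controls (edgeR adjusted p = 0.179). Sass6, a centriole assembly gene, was at 26.6, 32.5 and 33.4 CPM in the Paupar KD libraries, against 36.9, 39.1 and 40.1 CPM in the controls (edgeR adjusted p = 0.217). Both, named for the smallest p of the list, were lower in every Paupar KD library than in any control. The groups did not overlap in 2 of the 32 genes with Paupar KD higher and 6 lower. Over all genes that held for 13.7% and 13.3%.

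**Figure D3:**
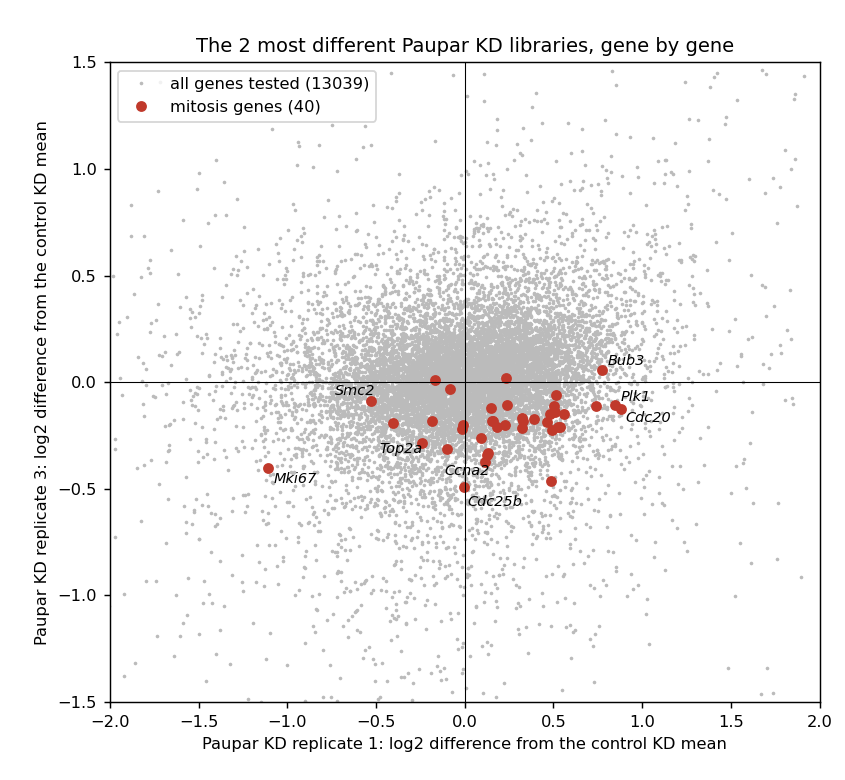
Log2 difference from the control KD mean in Paupar KD replicate 1 (horizontal) and in replicate 3 (vertical) for the 40 mitosis genes (red) and all 13039 genes tested (grey, those beyond the axes not drawn). Most red points lie to the right of and below 0. Of the 40 genes, 24 were above all controls in replicate 1 and below all controls in replicate 3, beside 11.7% of all genes.

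The outcome of the comparison rested on which Paupar KD library was included. Without replicate 3, edgeR called 4 of the 40 genes higher, Cdc20, Plk1, Ccnb2 and Cenpa, and 1 lower, Mki67, beside 4.65% of all genes higher and 5.67% lower. In that edgeR comparison Cdc20 was 1.55-fold higher (adjusted p = 0.0389), Plk1 1.5-fold (adjusted p = 0.0488), Ccnb2 1.45-fold (adjusted p = 0.0481) and Cenpa 1.38-fold (adjusted p = 0.0285), while Mki67 was at 0.559 of its control level (adjusted p = 0.0223). The median log2 fold change of the 40 genes was then 0.12. Without replicate 1, 0 were called higher and 1 lower, Mki67 at 0.702 of its control level (edgeR adjusted p = 0.0388), beside 0.934% of all genes higher and 0.972% lower. The median was then -0.063, and the 4 genes above were at 1.08-fold for Cdc20, 1.06-fold for Plk1, 1.07-fold for Ccnb2 and 1.08-fold for Cenpa. Cdc25b and Ccna2 were nearest to a call after Mki67, at 0.769 and 0.808 of their control levels (edgeR adjusted p = 0.0609 and 0.0765). Without replicate 2, or without any 1 control, edgeR called 0 of the 40 genes in either direction, with 0 higher and 1 to 3 lower at an unadjusted p under 0.05. Over all genes these fits called 0 as well, with 564 to 1068 higher and 553 to 994 lower at an unadjusted p under 0.05.

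**Figure D4:**
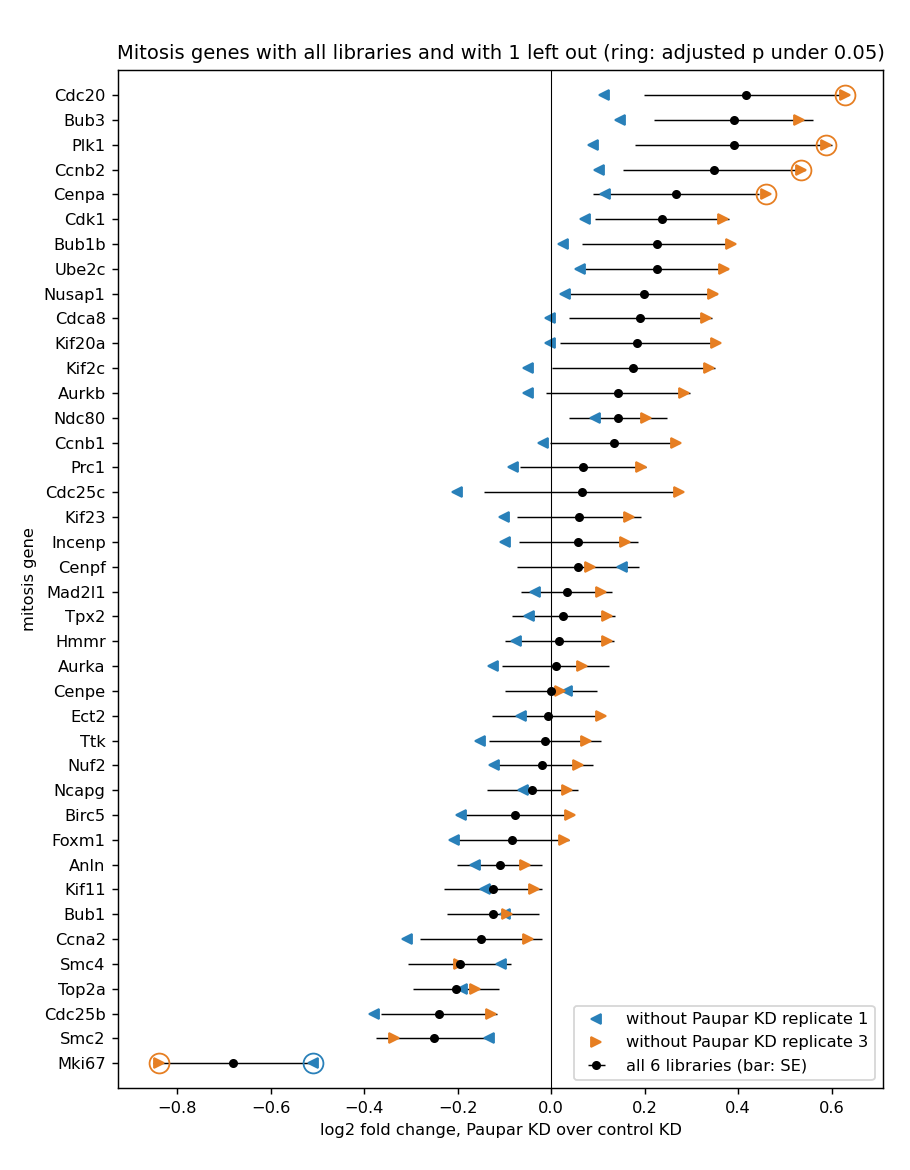
Log2 fold change of each of the 40 mitosis genes, Paupar KD over control KD, with all 6 libraries (black, bar = SE), without Paupar KD replicate 1 (blue) and without Paupar KD replicate 3 (orange), in order of the first; rings mark an edgeR adjusted p under 0.05. Mki67 is ringed in both subsets, and Cdc20, Plk1, Ccnb2 and Cenpa only where replicate 3 was left out.

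The fold changes of these genes went with their exonic length. Exonic length, the merged exons of a gene in the mm9 annotation, was 1541 to 11368 bases for the 40 genes. Its median was 3988, beside 3698 over all tested genes. Merged exons can exceed a single transcript: for Ccnb1 they were 4217 bases, against 2489 in its longest annotated coding transcript. Mki67 measured 10075 bases and Top2a 9070, against 1868 for Cdc20, 1541 for Ccnb2, 2055 for Bub3 and 2203 for Plk1. Tested genes were split by length into 4 groups of nearly equal size. All 7 mitosis genes in the shortest group leaned higher, at a median log2 fold change of 0.35, and 2 of the 6 in the longest group did, at a median of -0.020. Over all genes the medians were 0.11 in the shortest group and -0.083 in the longest. The whole transcriptome of Paupar KD replicate 1 leaned this way, at a median log2 difference of 0.19 in the shortest group and -0.22 in the longest, while replicate 2 had 0.090 and -0.057 and replicate 3 had 0.044 and 0.007. Controls ranged from -0.045 to 0.029 in the shortest group and from -0.030 to 0.030 in the longest. Across the 40 genes, which share the same 6 libraries, Pearson's r between log length and log2 fold change was -0.59, and across the 12800 tested genes with a length it was -0.22. The part of length in the results was tested only by a fit with a length-dependent offset in each library. In that fit Cdc20 was 1.26-fold and Ccnb2 1.18-fold higher and Top2a at 0.942 and Mki67 at 0.672 of the control level (edgeR adjusted p = 0.0845 for Mki67), and 0 of the 40 genes were called.

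In the length group from 2330 to 3698 bases, which holds 10 of the 40 genes, the median log2 differences were 0.28 in Paupar KD replicate 1, -0.035 in replicate 2 and -0.18 in replicate 3, beside 0.069, 0.019 and 0.006 for all genes of that group. In the group from 3699 to 5621 bases, which holds 17 of the 40 genes, the median log2 differences were 0.15 in Paupar KD replicate 1, 0.063 in replicate 2 and -0.19 in replicate 3, beside -0.040, -0.019 and -0.006 for all genes of that group. In the shortest group, with 7 of the 40 genes, they were 0.74, 0.24 and -0.11, and in the longest, with 6, they were -0.12, 0.067 and -0.21.

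**Figure D5:**
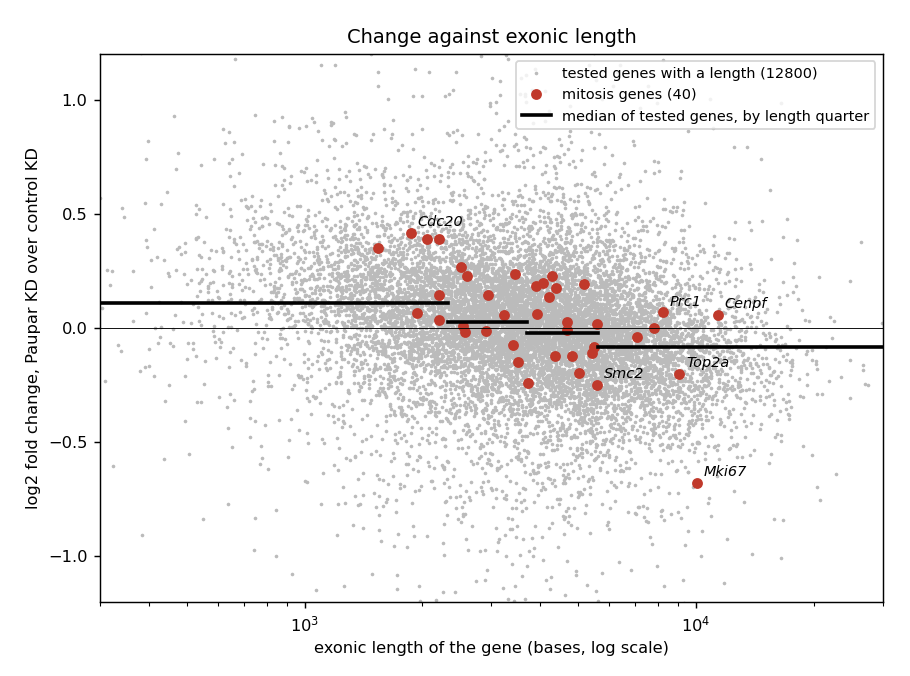
Log2 fold change, Paupar KD over control KD, against exonic length in bases (log scale) for the 40 mitosis genes (red) and 12800 tested genes (grey, those beyond the axes not drawn); black lines are the medians of tested genes in each of the 4 length groups. The medians run from 0.11 in the shortest group to -0.083 in the longest, with Cdc20 far above its group's line and Mki67 far below.

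Per exonic length, the 40 genes were well expressed in both groups. Top2a was highest in control KD, at 78.5 CPM per kb in Paupar KD and 90.4 CPM per kb in control KD, followed by Ccna2 at 80.8 CPM per kb in Paupar KD and 89.6 CPM per kb in control KD. Kif2c was lowest in control KD, at 14.5 CPM per kb in Paupar KD and 12.8 CPM per kb in control KD, and still above 59.9% of all tested genes. Bub3 was highest in Paupar KD, at 94.7 CPM per kb in Paupar KD and 72.2 CPM per kb in control KD. Mki67 was at 46.6 CPM per kb in Paupar KD and 74.6 CPM per kb in control KD, which placed it 5 from the top in control KD and 15 from the top in Paupar KD. Ncapg was lowest in Paupar KD, at 14.1 CPM per kb in Paupar KD and 14.5 CPM per kb in control KD. The SDs of Paupar KD around these means were wide enough that neighbours in the order are not told apart: Bub3, Cdc20 and Ccnb2, the top 3 in Paupar KD, had coefficients of variation of 26.8%, 34.9% and 29.3% there, against 1.93%, 3.33% and 8.32% in control KD.

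Genes that govern whether cells enter the cycle were compared from lists. Over all 10 lists of related genes, 229 genes tested, edgeR and limma-voom called 0. DESeq2 called 2 higher, Anapc4 and Cdkn2a, beside 2.11% of all genes higher and 1.79% lower. The S phase and DNA replication list, with 58 genes tested, held 29 that leaned higher and 29 lower, at a median log2 fold change of 0.007, with 3 higher and 4 lower at an unadjusted p under 0.05 (9.63% and 8.11% of all genes) by edgeR. Relative to the controls its medians were 0.090 in Paupar KD replicate 1, -0.023 in replicate 2 and -0.015 in replicate 3, where those of the mitosis genes were 0.23, 0.072 and -0.18; the difference between the lists was not tested. Replicate 1 was above and replicate 3 below the controls in 9 of the 58, beside 11.7% of all genes. Pold2, a subunit gene of DNA polymerase delta, was at 130.1, 90.1 and 83.6 CPM in the Paupar KD libraries, against 72.4, 71.1 and 73.7 CPM in the controls (edgeR adjusted p = 0.214). Cdc7, the gene of the kinase that fires replication origins, was at 55.9, 63.4 and 48.7 CPM in the Paupar KD libraries, against 68.3, 73.5 and 71 CPM in the controls (edgeR adjusted p = 0.206). Of 26 further G2 and mitosis regulators 12 leaned higher and 14 lower, at a median log2 fold change of -0.043. By edgeR, 2 were higher and 5 lower at an unadjusted p under 0.05 (9.63% and 8.11% of all genes). In 14 of the 26, replicate 1 was above and replicate 3 below the controls, beside 11.7% of all genes. Hjurp, the chaperone gene of CENP-A, was at 11.6, 12.2 and 10.6 CPM in the Paupar KD libraries, against 14.4, 14.5 and 16.3 CPM in the controls (edgeR adjusted p = 0.175). Cks1b, the gene of a small CDK-binding protein, was at 81.9, 73.1 and 48.2 CPM in the Paupar KD libraries, against 48.3, 46.3 and 40.1 CPM in the controls (edgeR adjusted p = 0.197). Hjurp and Cenpa thus differed in opposite directions in replicates 1 and 2.

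All 7 tested CDK inhibitor genes leaned higher under each scaling, beside 51.0% of all genes with TMM scaling. Their median log2 fold change was 0.24, with Cdkn1b lowest at 0.022, or 0.076 with the length offset. By edgeR 1 was higher at an unadjusted p under 0.05, beside 9.63% of all genes, and Cdkn1b leaned lower without Paupar KD replicate 2 or 3 or control KD replicate 3. Cdkn2a, whose locus encodes p16INK4a and p19ARF, was at 159, 136 and 125 CPM in the Paupar KD libraries, against 112, 102 and 96.5 CPM in the controls, without overlap between the groups (log2 fold change 0.44 ± 0.11 SE, edgeR adjusted p = 0.15). Cdkn2d, the p19INK4d gene, was at 13.1, 11.9 and 8.93 CPM in the Paupar KD libraries, against 9.26, 9.24 and 8.76 CPM in the controls (edgeR adjusted p = 0.333). Cdkn1a, the p21 gene, chosen after its values were seen, was at 124, 149 and 199 CPM in the Paupar KD libraries, against 133, 129.9 and 125 CPM in the controls, with replicate 3 the highest. G1 cyclin and kinase genes leaned higher in 6 and lower in 7 of 13 tested, at a median log2 fold change of -0.012 and, by edgeR, 2 higher and 1 lower at an unadjusted p under 0.05 (9.63% and 8.11% of all genes). Ccne1, the cyclin E1 gene, was at 125, 92.7 and 91.8 CPM in the Paupar KD libraries, against 76.6, 81.5 and 76.2 CPM in the controls, without overlap (edgeR adjusted p = 0.206). Skp2, a gene of the ligase that degrades p27, was at 60.9, 62.5 and 48.1 CPM in the Paupar KD libraries, against 47, 48.5 and 45.7 CPM in the controls (edgeR adjusted p = 0.265). Of the 20 genes of DREAM, MuvB and E2F regulators 9 leaned higher and 11 lower, at a median log2 fold change of -0.057 and, by edgeR, 1 higher and 4 lower at an unadjusted p under 0.05 (9.63% and 8.11% of all genes). Tfdp2, an E2F partner gene, was at 57.9, 68.1 and 75.2 CPM in the Paupar KD libraries, against 87, 91.1 and 83.5 CPM in the controls (edgeR adjusted p = 0.173). Lin9, a MuvB subunit gene, was at 60.0, 74.5 and 69.9 CPM in the Paupar KD libraries, against 81.3, 89.1 and 82.6 CPM in the controls (edgeR adjusted p = 0.216). Tfdp2 and Lin9, named for the smallest p of the list, were below the controls in all 3 Paupar KD libraries. Over the 20 genes the groups did not overlap in 3 with Paupar KD higher and 7 lower, beside 13.7% and 13.3% of all genes.

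The direction of most of these lists turned with the library left out. Without Paupar KD replicate 3 the median log2 fold change was 0.058 for the G2 and mitosis regulators, with 16 leaning higher and 10 lower, 0.10 for condensin subunits, 0.076 for kinetochore and centromere genes, 0.032 for kinesins and spindle genes and 0.055 for S phase genes. Without Paupar KD replicate 1 it was -0.092 for the G2 and mitosis regulators, with 6 leaning higher and 20 lower, -0.056 for condensin subunits, -0.035 for kinetochore and centromere genes, -0.048 for kinesins and spindle genes and -0.026 for S phase genes. DREAM, MuvB and E2F regulators kept a negative median of -0.089 to -0.027 over the libraries left out, and that of G1 genes was -0.063 to 0.015. With the length offset 9 of the G2 and mitosis regulators leaned higher and 17 lower, and 15 of the kinetochore and centromere genes leaned higher and 20 lower. With upper-quartile factors 8 of the G1 genes leaned higher and 5 lower, and under both settings 3 of the condensin subunits leaned higher and 2 lower.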

How the data were processed

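RNA-seq was run on 6 MIN6 libraries. The deposited files hold raw read counts per gene symbol, per the file headers and values. CASAVA 1.8.2, HISAT2, HTSeq and DESeq2 and the mm9 build are named in the submitters' processing notes, while nothing used here states the strand setting or the gene annotation (not given in the sources used here). Genes passing filterByExpr of edgeR 4.0.16 (minimum count 10) were scaled by TMM and tested with the robust quasi-likelihood test in R 4.3.3, with Benjamini-Hochberg adjustment over all 13039 tested genes and a threshold of 0.05. CPM values use TMM library sizes, except the summed levels of the cell type markers, which use total counts. The test was tried on simulated data with the same spread in both groups and no length trend, unlike these libraries. Alternatives were other scalings and filters, DESeq2 1.42.0, limma 3.58.1, a replicate block, a length offset and leaving out each library. Loci and exonic lengths come from GENCODE M1 on mm9. Near-identical copies, of at least 300 bases and 95% identity, were sought with minimap2 2.31. The 40 genes and all lists were chosen with earlier results of these data known. All 40 genes could be named. The rule gave values per library for the 12 of smallest p and the defining genes of each role, and the 2 of smallest p of each further list. Levels of all the remaining mitosis genes are printed as well, outside this rule. A gene of the further lists outside it is said to be so chosen. No pair of libraries agreed within counting noise. A further immune marker that had been listed, outside the 5 counted, is not reported here.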

Additional observations from a re-analysis of the deposited data

How the results depend on the processing

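Over all genes, edgeR called 5 higher and 1 lower in Paupar KD. DESeq2 called 275 and 233. By edgeR, upper-quartile scaling gave 3 and 0, keeping all counted genes 36 and 24, a minimum mean of 1 CPM 2 and 0, the length offset 20 and 9, and a threshold of 0.1 in place of 0.05 gave 55 and 38. With the replicate number as a block they were 1 and 0, with 0 of the 40 mitosis genes called. Deviations of same-numbered libraries correlated at 0.0722, -0.011 and 0.00612, and not every library correlated best with its own number. Correlations this small, with 3 libraries per group, cannot settle whether same-numbered libraries belong together. The labels do not say what the number means. Leaving out 1 library gave 0 to 611 higher and 0 to 745 lower. Of the 40 genes, 0 to 4 were then called higher and 0 to 1 lower, and DESeq2 called 0 higher and 1 lower; with RLE factors, library totals alone, limma-voom and no robust estimation the counts over all genes were unchanged at 5 and 1 and no mitosis gene was called. The median log2 fold change of the 40 genes ranged from -0.063 to 0.12 with 1 library left out, against 0.045 with all 6. That of Mki67 was -0.84 to -0.51 then. Under all 16 alternatives 49 of 640 values changed sign, in 21 genes, and 0 of those genes had a size above 0.191 with all libraries. With the length offset these were Ncapg at 0.043, Cdc25c at -0.013, Aurka at -0.041, Mad2l1 at -0.027, Cenpe at 0.094 and Ect2 at 0.021; with upper-quartile factors Ttk at 0.018, Cenpe at 0.029, Nuf2 at 0.011 and Ect2 at 0.023. Aurka was at -0.004 without a filter and -0.00045 with limma-voom, and Cenpe at 0.001 with limma-voom, 0.002 with library totals alone and 0.001 with the replicate block. With 1 library left out, the ranges of the genes that changed sign were -0.112 to 0.035 for Ncapg, -0.017 to 0.268 for Ccnb1, -0.201 to 0.275 for Cdc25c, -0.209 to 0.027 for Foxm1, -0.125 to 0.068 for Aurka, -0.034 to 0.106 for Mad2l1, -0.153 to 0.074 for Ttk, -0.05 to 0.285 for Aurkb, -0.193 to 0.04 for Birc5, -0.1 to 0.159 for Incenp, -0.002 to 0.332 for Cdca8. For the remaining genes they were -0.067 to 0.038 for Cenpe, -0.085 to 0.152 for Cenpf, -0.121 to 0.057 for Nuf2, -0.049 to 0.338 for Kif2c, -0.047 to 0.12 for Tpx2, -0.075 to 0.12 for Hmmr, -0.003 to 0.352 for Kif20a, -0.101 to 0.167 for Kif23, -0.081 to 0.192 for Prc1 and -0.085 to 0.106 for Ect2. The causes were not tested.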

Other observations

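The spread between Paupar KD libraries was wider than that between controls for 37 of the 40 mitosis genes, or 92.5%, beside 84.65% of all genes. The median coefficient of variation of the 40 genes was 17.4% in Paupar KD and 5.37% in control KD, beside 14.2% and 5.31% for all genes. CDK inhibitor genes beyond those above were likewise not called by edgeR. Cdkn1b, the p27 gene, was at 159, 228 and 226 CPM in the Paupar KD libraries, against 221, 202 and 181 CPM in the controls. Cdkn2c, the p18INK4c gene, was at 325, 289 and 239 CPM in the Paupar KD libraries, against 278, 269 and 241 CPM in the controls. Cdkn3, which encodes a phosphatase of CDKs, was at 40.1, 39.9 and 27.1 CPM in the Paupar KD libraries, against 31.6, 29.9 and 29.1 CPM in the controls, with replicates 1 and 2 above the controls and replicate 3 below them. The choice of these 3 followed a look at their values.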
